A study of Arabidopsis thaliana with 12 samples.

Results

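Annotated retained introns are introns that at least one annotated transcript keeps inside an exon, so that the same stretch of RNA is an intron in one isoform and exon sequence in another. The members were all exon features of the authors' 3 splicing tables whose event type was intron retention (IR). The rule found 388 introns in 373 genes of Arabidopsis thaliana, out of 10388 distinct features in the 3 tables. Of these, 267 introns were listed for rrc1-3 against Col-0 in the dark, among 6244 features. A further table listed 272 introns for rrc1-3 against Col-0 in red light, among 6003 features, and the last listed 20 for red light against dark in rrc1-3, among 843 features. Both genotype tables shared 156 introns, and 5 introns were in all 3 tables. In the RefSeq annotation of TAIR10.1, 384 of the 388 introns were retained by at least 1 transcript.

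RNA depleted of rRNA was sequenced from whole seedlings in 12 libraries, in 4 groups of 3. The groups were rrc1-3 seedlings in red light, rrc1-3 seedlings in the dark, Col-0 seedlings in red light and Col-0 seedlings in the dark. Col-0 is the wild type, and rrc1-3 is a mutant allele of RRC1 in the Col-0 background, whose kind of lesion the labels do not give. All seedlings had spent 4 days in darkness, and the red light groups then received 3 h of red light at a fluence rate of 7 µmol per square metre per second. The labels do not say that the 3 libraries of a group came from separate cultures, so the p-values measure the spread between libraries, which may be technical. In whole seedlings, a change in the share of cell types and a change within cells cannot be told apart.

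Intron retention is the commonest form of alternative splicing in plants. A retained intron inside the coding sequence often brings a stop codon into the reading frame, and one in an untranslated region changes the message around the protein. RRC1 is the Arabidopsis relative of human SR140, a protein found with the U2 small nuclear ribonucleoprotein, which recognises the branch point of introns. Plants that lack full RRC1 function are known for a weak response to red light seen through phytochrome B.

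Retention of an intron was computed in each library as the mean number of reads across its exon-intron boundaries, divided by that mean plus the reads spliced across the intron. The odds of retention are the boundary reads over the spliced reads, and their log2 change between groups was tested with edgeR. Each library held 1299166 to 1704528 boundary and spliced reads over the features listed in the dark. For red light the range was 1490472 to 2095410, and for the light response 301098 to 538886. Over the members, the median intron had 89.5 to 127 reads per library in the genotype tables. In the genotype tables, at most 3.31% of members had the same spliced count in any pair of libraries of a group, and in the light response table at most 5.56% of 18 introns, so every library was counted. The mutated gene went with the labels: intron retention at one RRC1 feature (AT5G25060:I002) was 88.6% to 98.4% in the rrc1-3 libraries and 3.24% to 4.95% in the Col-0 libraries in the dark. In red light it was 88.7% to 97.6% in rrc1-3 and 0.602% to 4.74% in Col-0.

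The rows of these introns name 2 different genes, and this decides which intron a value belongs to. In all 559 IR rows (267, 272 and 20), the boundary and spliced junctions were named after an intron of another gene than the feature that heads the row. The spliced junction lay inside the gene that heads the row in 0 of 267 dark rows, 0 of 272 red light rows and 0 of 20 light response rows. The same check found the row's own gene for all 4770 plain introns of the dark table, all 4433 of the red light table and all 737 of the light response table. In 55 cases an intron was named by a junction in one row and headed another row, and all 55 had the same coordinates in both places. The fractions follow from the junction reads. Which feature the authors' log2 change, p-value and FDR (false discovery rate) describe was not tested. Every value below was therefore assigned to the intron that the junctions name, and the deposited FDR of these rows was not used.

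Expression in the authors' deposited tables gave a second look at the same point. Spliced reads ranked with the FPKM (fragments normalised to transcript length and library size) of the junction's gene at a Spearman rho of 0.603 over 62 IR rows in the dark, against 0.0688 over 67 IR rows for the gene heading the row. In red light rho was 0.738 over 32 rows for the junction's gene, against -0.00364 over 35 rows for the gene heading the row. The change of spliced reads between genotypes ranked with the change in FPKM at 0.777 for the junction's gene and at 0.0119 for the row's gene in the dark. In red light these values were 0.478 and -0.0924. For the change from dark to red light in the light response table they were 0.881 over 8 rows and 0.282 over 16 rows. These correlations are across IR rows of the same libraries, and some genes occur in several rows. Rows are not independent replicates, and no p is given.

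**Figure D1:**
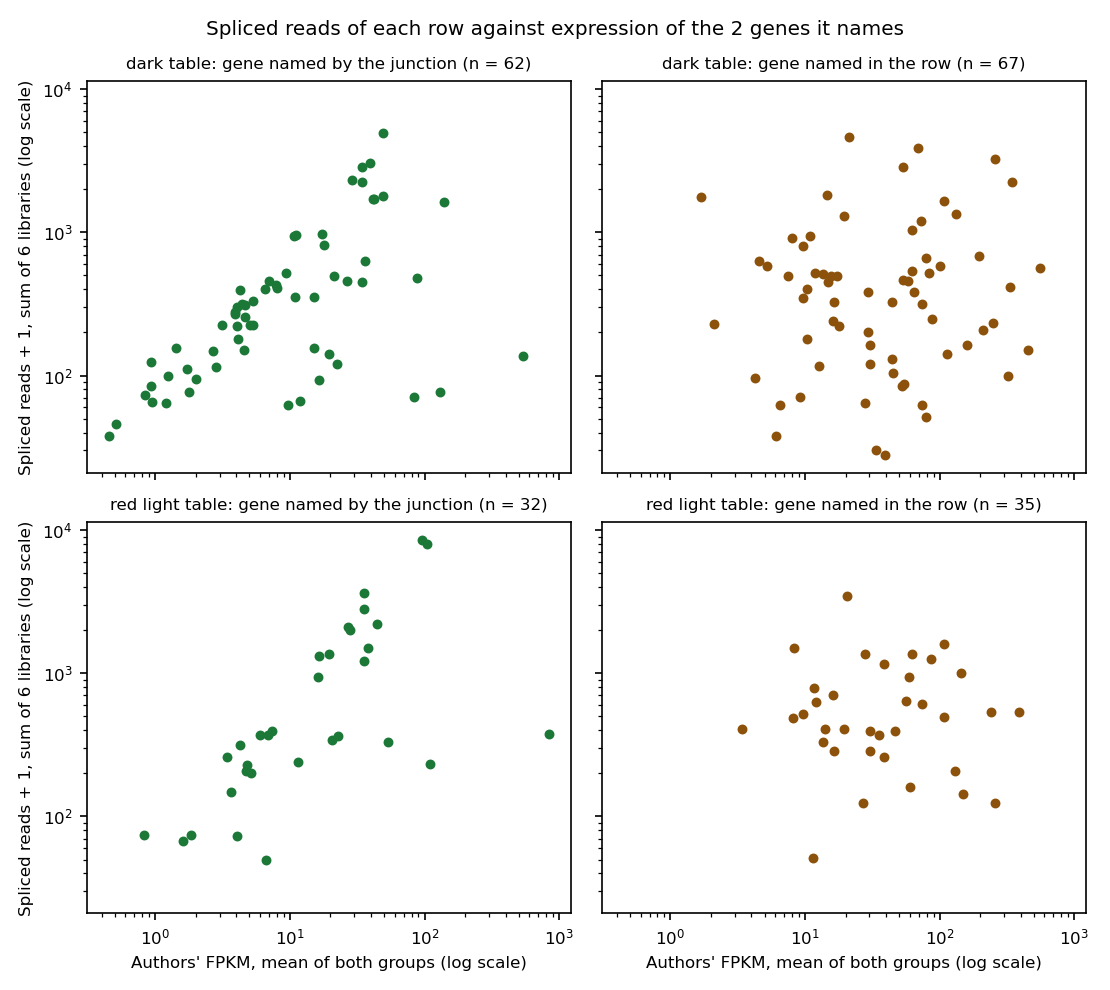
Each point is an IR row whose gene is in the authors' deposited expression table, with the FPKM of that gene (mean of both groups, log scale) on the horizontal axis and the spliced reads of the row, summed over 6 libraries plus 1 (log scale), on the vertical axis. Left panels use the gene that the junction names (62 rows in the dark, 32 in red light), where most points rise along a band, and right panels the gene that heads the row (67 and 35 rows), where they form a cloud.

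Introns among those with the largest shared differences between rrc1-3 and Col-0 are shown by their first 30 bases, since these hold the 5′ splice site where splicing of each one starts. The sequences are RefSeq TAIR10.1, read 5′ to 3′ along the gene, and the coordinates are those of the printed bases. Capitals mark the first 2 bases of the intron and, in AT5G25770, the first stop codon in the upstream reading frame. The first 5 introns were more retained in rrc1-3 and the last 6 less retained.
AT3G07215, chr3:2296679-2296708, minus strand: GTtagtaatgagtctgttgtgctcattttt
AT1G06890, chr1:2111731-2111760, minus strand: GTatggaactcaaataaagattttcaagcc
GATA3, chr4:16553480-16553509, plus strand: GTaaagagatacgatgagcatatcccacat
AT2G44280, chr2:18304041-18304070, minus strand: GTtcgaatctttagatgcaatttagtctat
POP4, chr2:17956063-17956092, plus strand: GTaagcatctattcagtttcatgtcttttg
VPS22, chr4:13574712-13574741, minus strand: GTaaaaaagttcaaatactcaacacttact
AT4G04692, chr4:2376085-2376114, minus strand: GTtcgtatcacgtttaatattcgctgtttg
AT5G25770, chr5:8971643-8971672, minus strand: GCatgtgattTGAttttttttcaatttcat
AT2G25730, chr2:10956675-10956704, minus strand: GTatacatcttttatttttggcagattagc
AT4G02005, chr4:878549-878578, minus strand: GTatgtgtttctccttaaacttgtatttaa
CTR1, chr5:974820-974849, minus strand: GTacattcctcatgagctatcaatcatatc

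The first comparison asked how retention differed between rrc1-3 and Col-0 in the dark. Of 267 listed introns, 263 passed the minimum of 10 reads per library, and 111 of them were called at an edgeR adjusted p under 0.05, 80 higher and 31 lower in rrc1-3. The rate over all features of the table was 52.0%, with 25.4% called higher and 26.6% called lower. The fractions of every listed intron differed by at least 0.03, so the listing favours calls, and these counts describe the list and do not test it. The log2 change in odds was above 0 for 188 of the 263 introns and had a median of 0.69. Retention differed by a median of 7.62 percentage points, and by over 10 points upward in 71 introns and downward in 27. The rrc1-3 and Col-0 libraries did not overlap for 135 of 267 introns, 95 higher and 40 lower, beside 63.2% over all features.

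The second comparison asked the same after red light. Of 272 listed introns, 270 passed the minimum, and 136 were called, 112 higher and 24 lower in rrc1-3. The rate over all features was 56.3%, with 36.1% called higher and 20.2% called lower. The log2 change in odds was above 0 for 206 introns and had a median of 0.77. Differences over 10 points numbered 83 upward and 22 downward, around a median size of 7.56 points. Libraries of the genotypes did not overlap for 164 of 272 introns, 131 higher and 33 lower, beside 66.5% over all features.

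Retention levels spanned the whole scale. In the dark, 74 of the 267 introns were retained in over 50% of reads in rrc1-3 and 67 in Col-0, while 45 stood under 10% in rrc1-3 and 73 in Col-0. After red light, 84 of 272 introns were over 50% in rrc1-3 and 62 in Col-0, and 44 were under 10% in rrc1-3 and 75 in Col-0. The median SD between libraries of a group was 4.13 points in rrc1-3 and 3.67 points in Col-0 in the dark, and 3.48 points in rrc1-3 and 3.00 points in Col-0 in red light. Many listed differences were therefore close to the spread of single libraries.

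The 156 introns of both genotype tables could be followed across all 4 groups. Their median retention was 33.5% ± 1.94 in rrc1-3 in red light and 24.8% ± 0.192 in Col-0 in red light (mean and SD of the library medians, n = 3 each). In the dark it was 29.0% ± 2.12 in rrc1-3 and 23.3% ± 0.324 in Col-0 (n = 3 each, ± SD). Every rrc1-3 library median (at least 31.4% in red light and 27.6% in the dark) was above every Col-0 median (at most 25% in red light and 23.5% in the dark). These introns were listed for a genotype difference in the same libraries, so the separation of medians describes the list and is no test.

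The genotype difference had the same sign in dark and red light for most of these introns. The log2 change in odds was above 0 in both conditions for 115 of the 156 introns, below 0 in both for 25, and opposite in 16. Of 60 introns called in both conditions, 49 were higher and 11 lower in rrc1-3 in both, and 0 were called in opposite directions. Features called in both conditions were not counted over the whole tables, so these counts only describe the list. Among all 2347 features tested in both tables, 93.7% kept their sign, compared with 89.7% of these introns. The 2 conditions used separate libraries. The Spearman rho between the log2 changes was 0.649 over the 156 introns and 0.853 over all features, as a description across features.

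**Figure D2:**
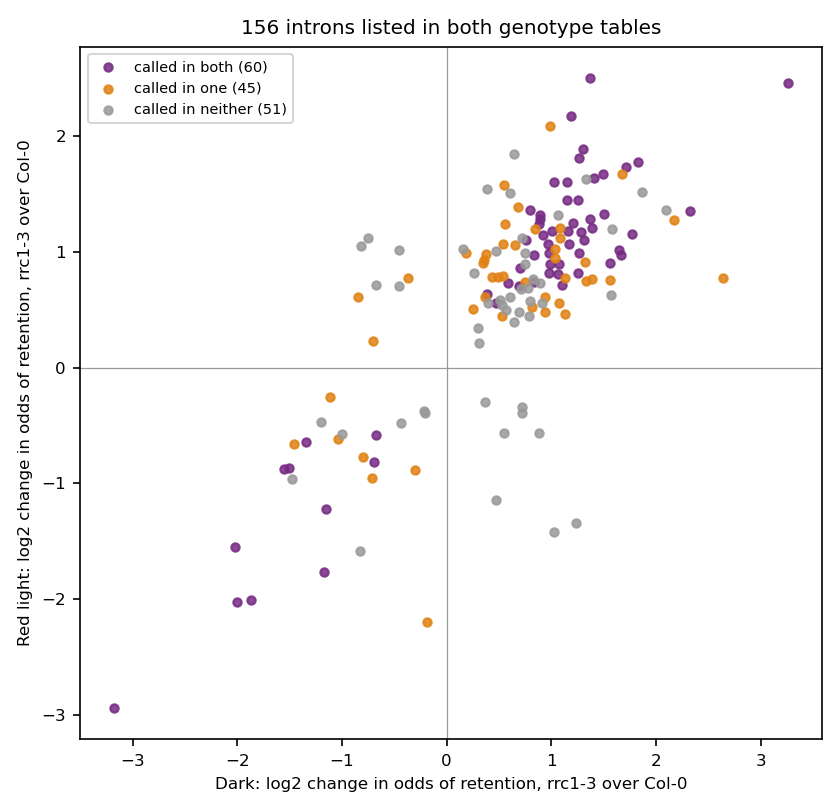
Each point is 1 of the 156 introns listed in both genotype tables, with the log2 change in odds of retention (rrc1-3 over Col-0) in the dark on the horizontal axis and in red light on the vertical axis. Colours give edgeR calls in both conditions (60 introns), in one, or in neither; called points lie mainly in the upper right and lower left, and the 16 introns of opposite sign lie in the other two quadrants.

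Among the introns named by the largest shared increase, GATA3 gave the tightest values in the dark. The naming rule took only introns whose rrc1-3 and Col-0 libraries did not overlap in either condition. Separation of these named introns was therefore set by the rule and is no result. GATA3 encodes a GATA-type zinc finger transcription factor, and its intron 1 of 2 lies in the 5′ untranslated region (chr4:16553480-16553694, 215 nt). Retention in the dark was 77.6%, 78.3% and 78.0% in the rrc1-3 libraries, against 52.9%, 51.7% and 51.0% in Col-0. All rrc1-3 libraries were higher, as the rule required, and the rule also chose the largest mean differences. The log2 change in odds was 1.71 (SE 0.27, edgeR adjusted p = 4.33e-05). In red light the libraries gave 85.9%, 79.9% and 85.9% in rrc1-3 and 59.0%, 59.8% and 64.7% in Col-0, with a log2 change of 1.73 (SE 0.26, edgeR adjusted p = 4.3e-05). Its boundaries were uneven in rrc1-3, with 76 reads at the first and 314 at the second in the dark, against 411 and 544 in Col-0. With the first boundary alone the log2 change was 0.59 (adjusted p = 0.199) in the dark and 0.82 (adjusted p = 0.0674) in red light, so neither was called.

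AT3G07215 is a noncoding locus with 2 member introns. The intron of 83 nt (chr3:2296626-2296708) was retained at 47.4%, 55.7% and 53.7% in rrc1-3 in the dark, against 19.8%, 22.9% and 12% in Col-0. In red light retention was 38.0%, 53.1% and 63.1% in rrc1-3 and 25.6%, 36.2% and 23.9% in Col-0. The groups did not overlap in either condition, as the naming rule required, although the rrc1-3 libraries spread widely in red light. The log2 changes were 2.32 (SE 0.37, edgeR adjusted p = 5.37e-05) in the dark and 1.35 (SE 0.40, edgeR adjusted p = 0.0104) in red light. These calls held under all 12 alternatives in each condition.

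AT1G06890, which encodes an EamA-like transporter, was named for intron 9 of 9 (chr1:2111606-2111760), a coding intron with an in-frame stop that begins at base 31. Its retention averaged 68.0% ± 5.70 in rrc1-3, against 44.3% ± 3.81 in Col-0, in the dark, and after red light 70.9% ± 8.34 in rrc1-3 and 43.8% ± 6.89 in Col-0 (n = 3 each, ± SD). Each rrc1-3 library was above each Col-0 library, as the naming rule required, but the boundaries differed sharply. In the dark, the first boundary in the table carried 60 reads in rrc1-3 and 78 in Col-0, and the second carried 626 in rrc1-3 and 256 in Col-0. With the first boundary alone the log2 change was -0.01 in the dark, against 1.41 with both, so the increase in the dark rests on the second boundary. In red light it was 0.93 with the first boundary alone, against 1.64 with both, and the call was lost (edgeR adjusted p = 0.104).

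The other 3 named increases lay in first introns of 5′ untranslated regions. AT2G44280, a major facilitator superfamily transporter, averaged 73.1% ± 7.97 in rrc1-3, against 43.9% ± 8.01 in Col-0, in the dark, and after red light 75.8% ± 1.51 in rrc1-3 and 58.5% ± 3.25 in Col-0 (n = 3 each, ± SD). ATB' GAMMA, a regulatory subunit of protein phosphatase 2A, averaged 44.8% ± 8.22 in rrc1-3, against 20.6% ± 1.40 in Col-0, in the dark (n = 3 each, ± SD). In red light ATB' GAMMA averaged 39.1% ± 4.05 in rrc1-3 and 23.9% ± 1.06 in Col-0 (n = 3 each, ± SD). POP4, a protein subunit of ribonuclease P, which trims precursor tRNA, averaged 34.3% ± 8.61 in rrc1-3, against 18.0% ± 0.474 in Col-0, in the dark, and after red light 32.2% ± 5.11 in rrc1-3 and 9.90% ± 0.539 in Col-0 (n = 3 each, ± SD). All 3 introns were called in both conditions, and no libraries of the genotypes overlapped, which the naming rule required. The dark call of POP4 (log2 change 1.19, edgeR adjusted p = 0.0396) rested on few reads and was lost in 7 of 12 alternatives, among them leaving out replicate 2 or replicate 3 of rrc1-3, or any 1 Col-0 library.

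**Figure D3:**
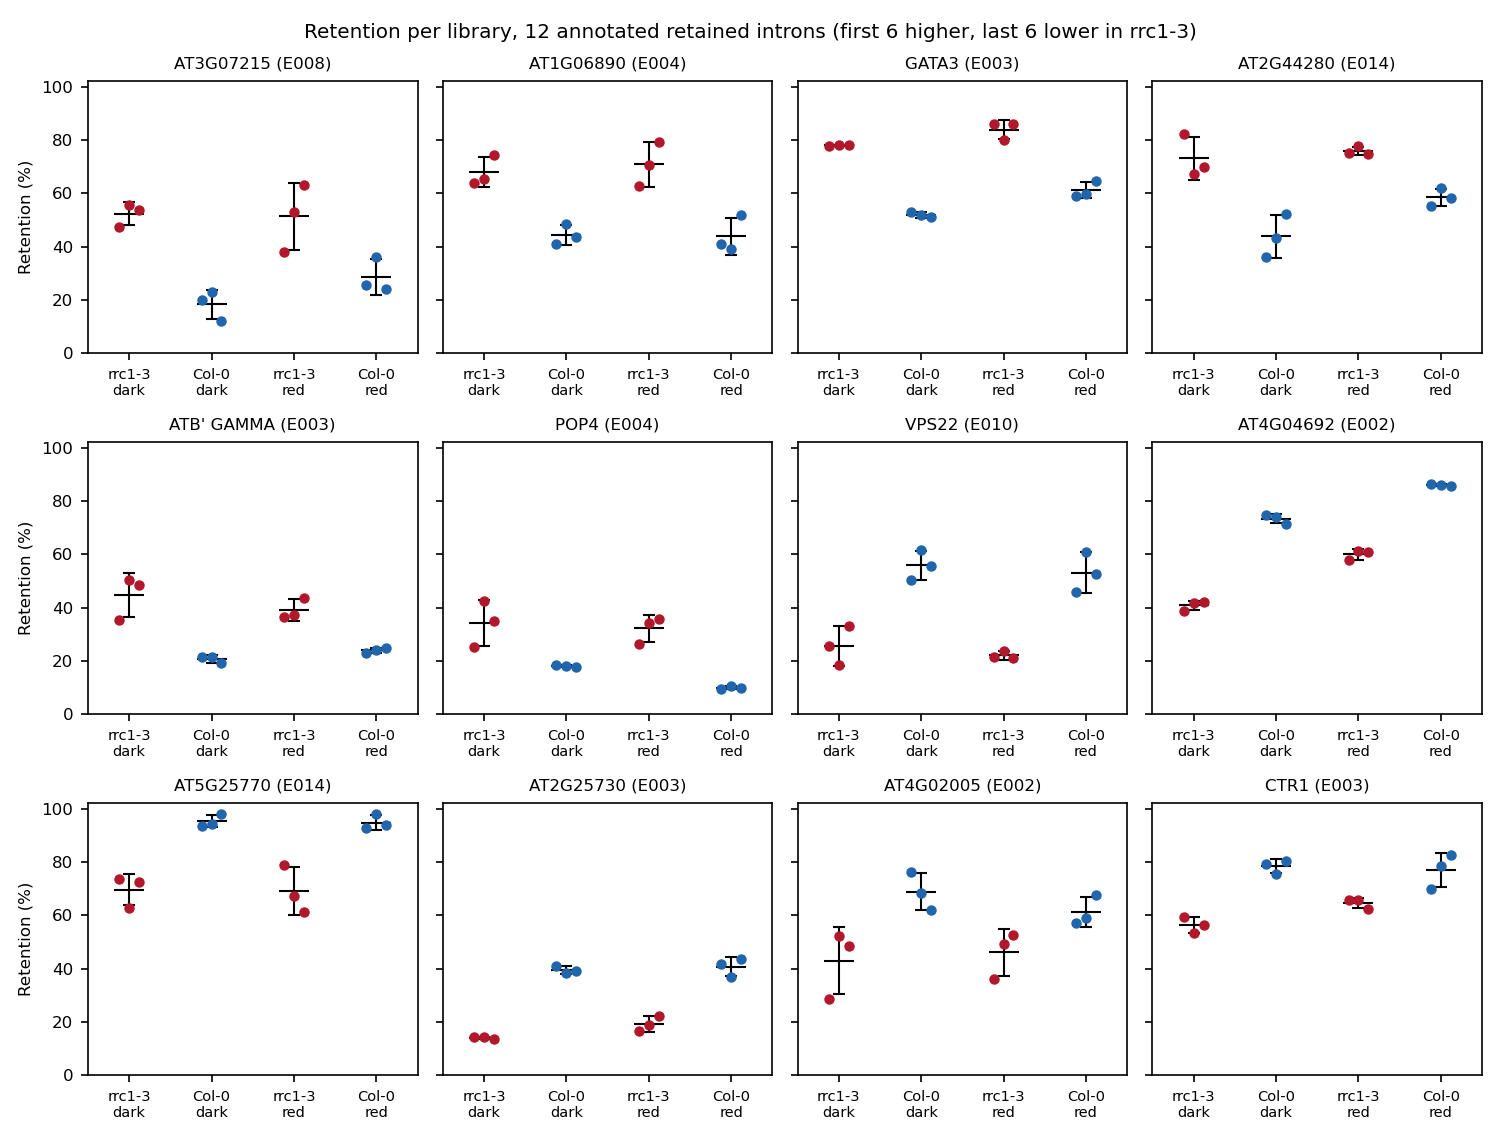
Retention in percent (vertical axis) of 12 annotated retained introns in rrc1-3 (red points) and Col-0 (blue points) in the dark and in red light, 1 point per library, with the mean as a bar and the SD over 3 libraries as whiskers. In the first 6 panels every rrc1-3 point lies above every Col-0 point of the same condition, and in the last 6 every rrc1-3 point lies below. The naming rule required this separation.

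The naming rule was met by 11 introns for a shared decrease and by 55 for an increase. The same count was not made over all features, so it only describes where the named introns came from. AT4G04692, a noncoding locus, carried the most reads among the named decreases. Its intron of 136 nt (chr4:2375979-2376114) was retained at 38.8%, 41.7% and 42.0% in rrc1-3 in the dark, against 74.8%, 74.0% and 71.4% in Col-0. In red light the libraries gave 57.7%, 61.4% and 60.9% in rrc1-3 and 86.4%, 86.0% and 85.5% in Col-0. The genotypes did not overlap in either condition, as the naming rule required, and the rule also chose the largest mean differences. Both genotypes stood higher in red light. The log2 change between genotypes was -2.0 (SE 0.15, edgeR adjusted p = 1.17e-09) in the dark and -2.02 (SE 0.15, edgeR adjusted p = 6.55e-09) in red light.

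VPS22 encodes a subunit of the ESCRT-II complex, which sorts membrane proteins for degradation. Its intron 2 of 8, in the 5′ untranslated region (chr4:13574674-13574741, 68 nt), was retained at 25.4%, 18.3% and 33.2% in rrc1-3 in the dark, against 50.4%, 61.5% and 55.8% in Col-0. In red light the values were 21.3%, 23.8% and 20.9% in rrc1-3 and 46.0%, 61.0% and 52.5% in Col-0. Every rrc1-3 library was lower than every Col-0 library, as the naming rule required. The log2 changes were -1.87 (edgeR adjusted p = 4.1e-05) in the dark and -2.01 (edgeR adjusted p = 1.18e-05) in red light. A second VPS22 member (E014) had a log2 change of -0.86 in the dark and did not pass the test (edgeR adjusted p = 0.0633), although its libraries did not overlap.

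AT5G25770, an alpha/beta hydrolase, had the largest change in odds among the named decreases and a GC in place of GT at its 5′ splice site. This coding intron 2 of 13 (chr5:8971439-8971672) was retained at 73.5%, 62.8% and 72.5% in rrc1-3 in the dark, against 93.7%, 94.4% and 97.9% in Col-0. In red light it averaged 69.1% ± 8.97 in rrc1-3 and 94.8% ± 2.71 in Col-0 (n = 3 each, ± SD). The spliced form was the minor one in both genotypes and rose in rrc1-3. Spliced reads summed to 41 in rrc1-3, against 13 in Col-0, in the dark, and after red light to 45 in rrc1-3 and 9 in Col-0, so the odds rest on few spliced reads. The log2 changes were -3.18 (SE 0.52, edgeR adjusted p = 8.9e-05) in the dark and -2.94 (SE 0.58, edgeR adjusted p = 0.000616) in red light.

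The remaining named decreases lay at the 3′ end of their genes or in a noncoding locus. CTR1 encodes the Raf-like kinase that holds ethylene signalling off without the hormone. Its intron 15 of 15, in the 3′ untranslated region (chr5:974709-974849), averaged 56.3% ± 2.99 in rrc1-3, against 78.4% ± 2.61 in Col-0, in the dark, and after red light 64.7% ± 1.86 in rrc1-3 and 77.0% ± 6.49 in Col-0 (n = 3 each, ± SD). The CTR1 change in red light was not called with the second boundary alone or with limma (log2 changes from -1.48 to -0.36 over 12 alternatives). AT2G25730, a FYVE zinc finger protein, was retained in 14% ± 0.365 of reads in rrc1-3, against 39.5% ± 1.38 in Col-0, in the dark at its intron 35 of 35 (n = 3 each, ± SD). In red light AT2G25730 stood at 19.1% ± 2.87 in rrc1-3 and 40.6% ± 3.56 in Col-0 (n = 3 each, ± SD). The noncoding locus AT4G02005 averaged 43.0% ± 12.6 in rrc1-3, against 68.9% ± 6.97 in Col-0, in the dark, and after red light 46.1% ± 8.78 in rrc1-3 and 61.2% ± 5.63 in Col-0 (n = 3 each, ± SD). Its call in red light (edgeR adjusted p = 0.0203) was lost in 5 of 12 alternatives, including without replicate 1 of rrc1-3 and without replicate 3 of Col-0.

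The greatest differences of the genotype lists rested on few reads in at least one group or on a single library. The greatest rise in red light was in AT2G24600, an ankyrin repeat protein, at 87.9%, 77.8% and 80.0% in rrc1-3 and 36.8%, 34.3% and 47.6% in Col-0. The AT2G24600 groups were apart (log2 change 2.69, SE 0.78, edgeR adjusted p = 0.00905), with 8 spliced reads in rrc1-3 and 40 in Col-0 in all. The greatest fall in the dark was in PAI3, which encodes a phosphoribosylanthranilate isomerase of tryptophan synthesis, at 16.7%, 30.8% and 22.1% in rrc1-3 and 53.8%, 45.1% and 88.2% in Col-0. The PAI3 groups were also apart (log2 change -2.12, SE 0.64, edgeR adjusted p = 0.0113), with 123 spliced reads in rrc1-3 and 24 in Col-0. The greatest rise in the dark was in NSP2, which encodes a nitrile specifier protein, at 83.3% ± 28.9 in rrc1-3 and 6.88% ± 3.67 in Col-0 (n = 3 each, ± SD). NSP2 had 1 spliced read in rrc1-3 and 28 in Col-0 in all, and did not reach the minimum for the test. The greatest fall in red light was in AT3G10300, at 5.79%, 3.78% and 3.14% in the rrc1-3 libraries and 3.68%, 100% and 64.1% in Col-0. The groups overlapped, and 249 of the 256 spliced Col-0 reads came from a single library. At the other end, the smallest listed differences in the authors' deposited tables, given as Col-0 minus rrc1-3, were -0.0301 in FPA, an RNA-binding regulator of flowering, in the dark and 0.03 in UBP27, a ubiquitin-specific protease, in red light. For the light response, given as dark minus red light, the smallest was -0.0344 (AT2G44280:E011). No listed intron had a difference under 0.03, so smaller differences cannot be followed here.

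The direction of the genotype difference was set beside that of the other classes of features. Annotated retained introns had a median log2 change of 0.69 in the dark and 0.77 in red light. Introns that overlap another alternative event had medians of 0.69 over 809 introns in the dark and 0.75 over 834 in red light. Plain introns, which the tables list as introns with no other event, had medians of -0.57 over 4756 introns in the dark and 0.56 over 4421 in red light. Other exon bins had medians of -0.34 over 397 bins in the dark and -0.25 over 461 in red light. Calls for the retained introns were higher in rrc1-3 in 30.4% and lower in 11.8% in the dark, beside 24.1% higher and 29.6% lower for plain introns. Introns that overlap another event stood close to the retained introns in the dark, with 35.0% higher and 11.4% lower. Other exon bins had 17.9% higher and 31.0% lower. In red light the shares were 41.5% higher and 8.89% lower for retained introns and 35.9% higher and 21.9% lower for plain introns. They were 41.8% higher and 9.83% lower for introns that overlap another event, and 24.3% higher and 29.1% lower for other exon bins. The difference between classes was not tested.

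**Figure D4:**
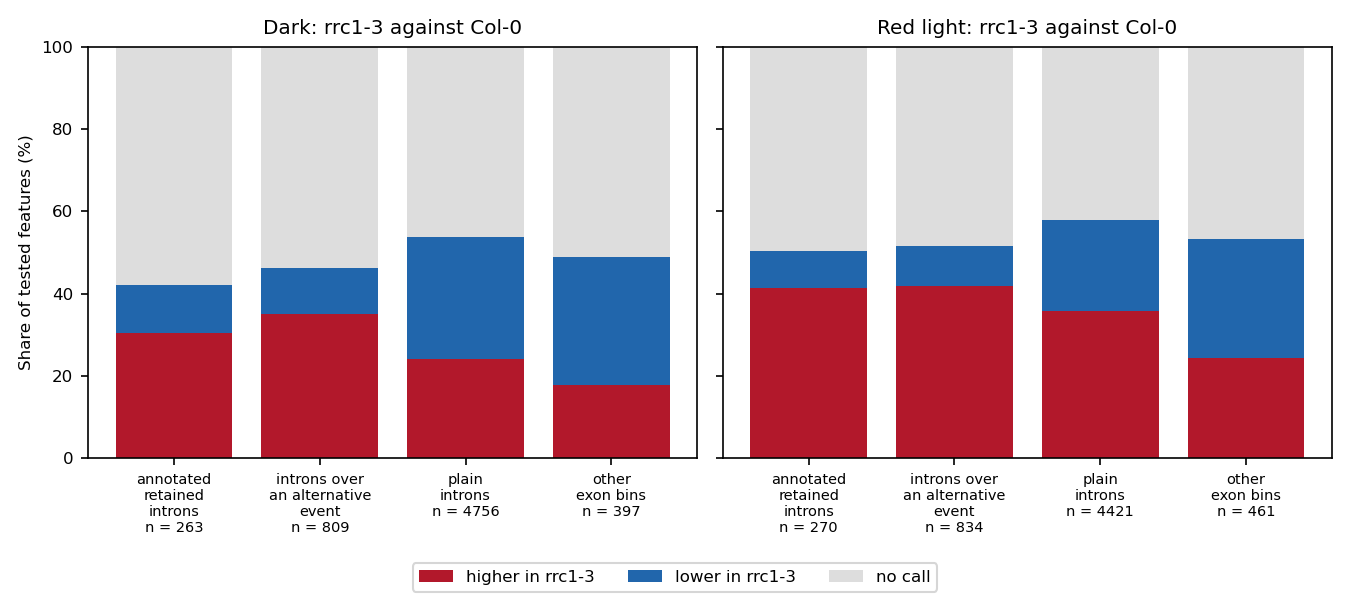
Stacked bars give the share of tested features (percent, vertical axis) called higher (red) or lower (blue) in rrc1-3 than in Col-0, or not called (grey), for each class of feature in the dark (left) and in red light (right), with the number tested under each bar. Retained introns show 30.4% higher against 11.8% lower in the dark and 41.5% against 8.89% in red light. Introns that overlap another event show shares close to these, and plain introns in the dark show the opposite order.

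The rule did not use the light response of the 156 introns, although it rests on the same libraries as their listing. It was tested in 1 fit over all 12 libraries. In rrc1-3, 8 of 156 introns were called higher in red light than in the dark and 0 lower, beside 3.79% called over all 2349 features (2.47% higher, 1.32% lower). In Col-0, 4 were called higher and 1 lower, beside 2.30% called over all features (0.894% higher, 1.40% lower). The log2 change from dark to red light was above 0 for 113 introns in rrc1-3 (72.4%, median 0.25) and for 110 in Col-0 (70.5%, median 0.24). Over all features it was above 0 for 63.1% in rrc1-3 and 55.0% in Col-0. Introns called in both genotypes numbered 3, which is 3 of 8 in rrc1-3 and 3 of 5 in Col-0. The same overlap was not counted over all features, so it is a description only.

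The introns called in both genotypes were those of AT4G04692, AT3G26510 and AT3G47560. AT4G04692 changed by a log2 odds of 1.12 in rrc1-3 (edgeR adjusted p = 5.86e-07) and 1.14 in Col-0 (edgeR adjusted p = 7.04e-06), and these calls held in all 18 alternatives. AT3G26510, a protein with an octicosapeptide/Phox/Bem1p domain, was retained at 85.3% ± 1.02 in red light and 75.5% ± 2.87 in the dark in rrc1-3 (n = 3 each, ± SD). In Col-0 it stood at 79.8% ± 3.00 in red light and 68.9% ± 1.12 in the dark (n = 3 each, ± SD). Its Col-0 call was lost with the first boundary alone, with limma, and without replicate 2 of Col-0 in red light. Its rrc1-3 call was lost only with limma. AT3G47560, an alpha/beta hydrolase, was retained at 34.4%, 39.2% and 35.0% in red light and 21.6%, 22.0% and 17.8% in the dark in the rrc1-3 libraries. In Col-0 it gave 23.0%, 23.5% and 29.2% in red light and 10.1%, 15.1% and 15.2% in the dark. Red light libraries were above dark libraries in each genotype, and the log2 change was 1.12 in both (edgeR adjusted p = 0.0024 in rrc1-3 and 0.0137 in Col-0). The Col-0 call of AT3G47560 was lost in 6 of 18 alternatives, among them without replicate 3 of Col-0 in red light and without replicate 1 of Col-0 in the dark. Its rrc1-3 call was lost only with limma.

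The whole AT3G47560 intron is shown because it was more retained in red light in both genotypes and reads through in frame. It is coding, its 78 bases are a multiple of 3, and no stop codon lies in the upstream reading frame. Capitals mark the splice site dinucleotides at both ends (intron 4 of 5, RefSeq TAIR10.1).
AT3G47560, chr3:17525953-17526030, minus strand: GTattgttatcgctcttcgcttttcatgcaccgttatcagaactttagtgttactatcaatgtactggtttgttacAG

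In rrc1-3 the other 5 calls were of AT1G77480, AT1G19000, AT3G17100, IMPA-2 and AL1. AT3G17100, a DNA-binding transcription factor, was retained at 38.9% ± 2.42 in red light and 28.7% ± 1.26 in the dark in rrc1-3, and at 16.6% ± 1.33 in red light and 12.5% ± 0.448 in the dark in Col-0 (n = 3 each, ± SD). IMPA-2, an importin alpha that carries proteins into the nucleus, was retained at 28.6% ± 3.61 in red light and 19.5% ± 1.34 in the dark in rrc1-3, and at 13.7% ± 0.981 in red light and 11.6% ± 1.16 in the dark in Col-0 (n = 3 each, ± SD). AL1, an alfin-like PHD finger protein, averaged 41.0% ± 2.73 in red light and 28.4% ± 5.74 in the dark in rrc1-3, and 31.5% ± 2.14 in red light and 23.6% ± 3.67 in the dark in Col-0 (n = 3 each, ± SD). The rrc1-3 calls of AL1 and AT1G77480 held in 10 of 18 alternatives and were lost without replicate 2 or 3 in red light and without replicate 1 or 2 in the dark. That of AT1G19000, a homeodomain-like protein, was lost with the second boundary alone and with limma. It was also lost without replicate 3 in red light and without replicate 2 in the dark. The rrc1-3 calls of AT3G17100 and IMPA-2 held in 16 of 18 alternatives. Both were lost with limma, AT3G17100 also with the first boundary alone and IMPA-2 with the second alone. In Col-0 the introns of AT3G17100, IMPA-2 and AL1 did not pass the test (edgeR adjusted p = 0.071, 0.549 and 0.216), which does not show that the genotypes differed. In Col-0 the other 2 calls were of AT5G19950 and PDK1, a phosphoinositide-dependent protein kinase. PDK1, at 11.6% ± 3.19 in red light and 23.0% ± 5.21 in the dark (n = 3 each, ± SD), was the only fall in Col-0 (log2 change -1.15, edgeR adjusted p = 0.0307), and its call held in 10 of 18 alternatives. It was lost without replicate 1 or 2 of Col-0 in red light, and without replicate 2 or 3 in the dark. The Col-0 call of AT5G19950 (log2 change 2.32, edgeR adjusted p = 0.0128) was lost with the second boundary alone. It was also lost without replicate 3 in red light and without replicate 2 or 3 in the dark. IMPA-2, AL1, AT1G19000, AT3G17100 and PDK1 were chosen after their values were seen, to complete the short counts.

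**Figure D5:**
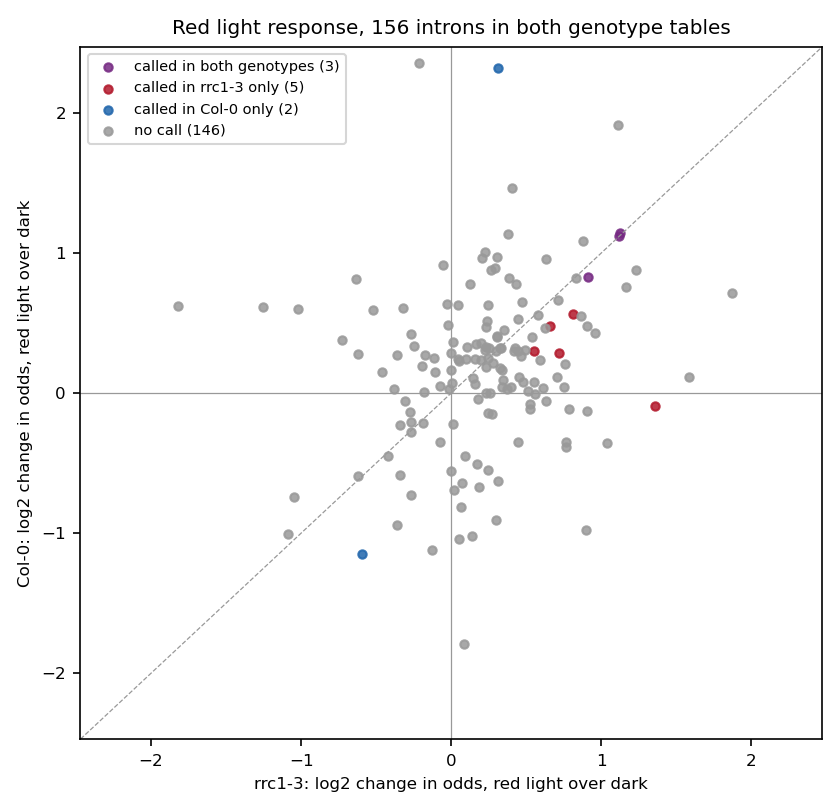
Each point is 1 of the 156 introns, with the log2 change in odds of retention from dark to red light in rrc1-3 on the horizontal axis and in Col-0 on the vertical axis, and a dashed line where both are equal. Colours give edgeR calls in both genotypes (3 introns), in 1 genotype or in none; points are more often above 0 than below on both axes, for 113 introns in rrc1-3 and 110 in Col-0.

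The difference between the light responses of rrc1-3 and Col-0 was tested as an interaction. None of the 156 introns passed (0 called by edgeR, DESeq2 or limma), 14 had an unadjusted p under 0.05 in edgeR, and the smallest edgeR adjusted p was 0.453. Over all 2349 features 0.0426% were called, and 154 had an unadjusted p under 0.05 in edgeR. The median SE of the interaction was 0.51 on the log2 scale. Interactions of these introns ranged from -2.56 to 1.88 and none was called, so differences well above that SE also went undetected at this depth. The smallest p values belonged to AT5G15270, AT1G77480, AT5G19950, DRB3 and WAVE2. AT5G15270, an RNA-binding KH domain protein, was retained at 46.4% ± 3.14 in red light and 41.0% ± 0.651 in the dark in rrc1-3, and at 42.3% ± 5.36 in red light and 53.3% ± 7.62 in the dark in Col-0 (n = 3 each, ± SD). AT5G19950, a tudor domain protein, stood at 17.9% ± 3.37 in red light and 13.2% ± 3.24 in the dark in rrc1-3, and at 49.1% ± 2.53 in red light and 15.9% ± 7.15 in the dark in Col-0 (n = 3 each, ± SD). The interaction was -2.01 for AT5G19950 (SE 0.76, edgeR adjusted p = 0.581), although all Col-0 red light libraries were above all others. AT1G77480, DRB3, which binds double-stranded RNA, and WAVE2, an actin regulator of the SCAR family, had interactions of 1.45, 0.85 and 1.39 (edgeR adjusted p = 0.457, 0.627 and 0.669).

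The authors' table of red light against dark in rrc1-3 listed 20 introns, all of which passed the minimum of reads. Of these, 7 were called higher and 1 lower in red light, beside 86.6% called over all features of that table (63.8% higher, 22.8% lower). The libraries did not overlap for 7 introns, 6 higher and 1 lower, beside 85.6% over all features. The rrc1-3 libraries of this table are the same libraries as in the genotype tables. HEME1, uroporphyrinogen decarboxylase of heme and chlorophyll synthesis, was retained at 68.7%, 69.4% and 69.3% in red light and 47.4%, 54.6% and 54.6% in the dark. Red light was higher in every library, with a log2 change of 1.04 (SE 0.18, edgeR adjusted p = 9.89e-05). This intron 6 of 6 lies in the 3′ untranslated region (chr3:5022584-5022665). In the red light comparison of genotypes HEME1 averaged 69.2% ± 0.389 in rrc1-3 and 54.8% ± 0.986 in Col-0 (n = 3 each, ± SD).

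The single called decrease was in PPD1, a PsbP domain protein of the chloroplast. Its coding intron of 561 nt (chr4:8861753-8862313) was retained at 6.75%, 6.27% and 6.13% in red light, against 12%, 11.9% and 10.9% in the dark, with a log2 change of -0.95 (SE 0.28, edgeR adjusted p = 0.00539). The PPD1 call was lost with the second boundary alone (edgeR adjusted p = 0.104) and held in the other 11 of 12 alternatives. The groups were apart while PPD1 itself was covered more deeply in red light, with 1966 spliced reads in red light and 321 in the dark. ZFN3, a CCCH zinc finger protein, averaged 52.6% ± 3.02 in red light and 39.4% ± 12.3 in the dark (n = 3 each, ± SD), and was called (edgeR adjusted p = 0.017). The ZFN3 call held in 7 of 12 alternatives. It was lost with DESeq2, limma or the second boundary alone, and without replicate 2 of either group. AT2G23680, a cold acclimation protein of the WCOR413 family, averaged 45.2% ± 7.59 in red light and 21.4% ± 11.1 in the dark (n = 3 each, ± SD, edgeR adjusted p = 0.0108). Its call was lost with the first boundary alone and without replicate 1 of the dark group. The longer AT3G07215 intron, of 902 nt, averaged 85.9% ± 7.96 in red light and 70.2% ± 6.37 in the dark (n = 3 each, ± SD, edgeR adjusted p = 0.0291). That call was lost in 6 of 12 alternatives, including without replicate 1 or 3 of the red light group and replicate 1 or 2 of the dark group. GER2, AT4G14905 and AT5G55550 did not pass (edgeR adjusted p = 0.0885, 0.149 and 0.41).

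The 5 introns found in all 3 tables were those of AT2G23680, AT2G25770, the longer one of AT3G07215, TOM20-1 and ZFN3. Only ZFN3 and AT3G07215 were called between genotypes, and only in red light. In red light ZFN3 stood at 52.6% ± 3.02 in rrc1-3, against 39.3% ± 4.33 in Col-0 (n = 3 each, ± SD, log2 change 0.78, edgeR adjusted p = 0.00437). The AT3G07215 call (log2 change 1.20, edgeR adjusted p = 0.0364) held in 5 of 12 alternatives and was lost without replicate 1 or 3 of rrc1-3 or any 1 Col-0 library, and its log2 change was -0.12 with the second boundary alone. TOM20-1, a receptor of mitochondrial protein import, had retention of 0%, 7.14% and 60.0% in rrc1-3 in the dark on 19 spliced reads in all, so 1 library set its mean. AT2G25770 had 14 spliced reads in rrc1-3 in red light and did not pass in any table.

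Few members fell in the gene groups followed here. Of 20 SR protein genes, which encode serine/arginine-rich splicing factors, 0 had a member intron, and neither did any of 27 light signalling genes. Of 21 other splicing factor genes 1 had a member, of 26 clock genes 2, and of 27 photosynthesis and chlorophyll genes 1. The same tables listed other kinds of feature for these genes, for example 27 in SR protein genes and 29 in other splicing factor genes in red light. Members made up 4.28% of all features listed in the dark and 4.53% in red light. Beside that share, counts this small are not read as a lack of members in these groups.

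The splicing factor was ATU2AF65A, the large subunit of U2AF, which binds the pyrimidine tract before the 3′ splice site. Its coding intron 11 of 12 was retained at 9.49%, 13.6% and 12.1% in rrc1-3 in red light, against 26.1%, 27.0% and 28.8% in Col-0. All rrc1-3 libraries were lower, with a log2 change of -1.50 (SE 0.18, edgeR adjusted p = 4.31e-06) that held in all 12 alternatives. Spliced reads summed to 2204 in rrc1-3 and 926 in Col-0. The intron is printed whole, with its splice site dinucleotides in capitals. Among the groups followed, it is the one member in a gene that itself encodes part of the splicing machinery. Its 100 bases hold no in-frame stop in the upstream frame. They are not a multiple of 3, so retention would shift the reading frame downstream of the intron.
ATU2AF65A, chr4:17294604-17294703, minus strand: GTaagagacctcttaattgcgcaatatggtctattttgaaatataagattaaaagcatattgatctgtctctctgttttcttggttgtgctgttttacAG

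The clock genes were JMJD5, a jumonji-type oxygenase of the clock, and AT3G54500, known as LNK2, a coactivator of evening genes. The JMJD5 intron was almost always retained, at 99.2%, 98.9% and 100% in rrc1-3 and 96.2%, 95.0% and 94.6% in Col-0 in the dark. It was spliced in 5 reads in rrc1-3 and 40 in Col-0, and the log2 change was 2.69 (SE 0.55, edgeR adjusted p = 0.000753). The AT3G54500 intron, in the 5′ untranslated region, was retained at 59.5%, 53.7% and 65.5% in rrc1-3 in red light, against 37.1%, 37.7% and 39.6% in Col-0. The log2 change was 1.27 (SE 0.19, edgeR adjusted p = 4.67e-05), and the groups did not overlap. RCA, rubisco activase, was the photosynthesis gene. Its intron 6 of 6 was retained at 7.26%, 8.12% and 8.37% in rrc1-3 in red light and 4.61%, 4.61% and 4.54% in Col-0. This small difference rested on 32263 spliced reads in rrc1-3 and 21725 in Col-0 and was called (log2 change 0.84, SE 0.14, edgeR adjusted p = 0.000134). In RCA, a stop codon in frame begins at base 4 of the intron.

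The members were also described by their sequence and place, which the rule did not use. Their median length was 102 nt, against 136 nt for plain introns of the dark table and 128 nt for those of the red light table. Of 388 introns, 378 had GT at the 5′ and AG at the 3′ splice site, 8 had a GC 5′ splice site, and 1 had AT and AC ends. In the transcripts that splice them, 227 lay between coding exons, 113 in the 5′ untranslated region, 37 in the 3′ untranslated region and 10 in noncoding transcripts. Members in the 5′ untranslated region made up 29.1%, against 14.3% of plain introns in the dark table. Of introns called higher in rrc1-3 in the dark, 42.5% (34 of 80) lay in the 5′ untranslated region. The share was 22.6% (7 of 31) of those called lower and 26.3% (40 of 152) of those not called. In red light these shares were 33.9% (38 of 112), 12.5% (3 of 24) and 31.3% (42 of 134).

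A stop codon in frame was found inside 178 of the 227 coding members (78.4%), at a median of 30.5 bases into the intron, against 91.7% of coding plain introns in the dark table. The length was a multiple of 3 for 131 of 388 members. The letters GTAAG, read on the transcribed strand at the first bases of the intron, opened 60 members (15.5%), against 16.7% of plain introns in the dark table. In the dark they opened 8 of 80 introns called higher in rrc1-3 (10%). They opened 5 of 31 called lower (16.1%) and 24 of 152 not called (15.8%). In red light they opened 12 of 112 called higher (10.7%), 2 of 24 called lower (8.33%) and 23 of 134 not called (17.2%). These shares are descriptions, and no test was made of them.

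Few host genes appeared in the authors' deposited expression tables. Of 79 genes with an intron called higher in rrc1-3 in the dark, 10 were listed there, 2 with higher and 8 with lower expression in rrc1-3. Of 31 genes with an intron called lower, 6 were listed, 5 higher and 1 lower. Of 150 genes whose introns were not called, 42 were listed, 15 higher and 27 lower, so lower expression was also the more frequent direction there. Over the whole table, expression was higher in rrc1-3 for 3114 genes and lower for 2516. In red light, 12 of 108 genes with higher retention were listed, 3 higher and 9 lower, and 4 of 24 genes with lower retention, 1 higher and 3 lower. Of 133 genes with no call in red light, 14 were listed, 4 higher and 10 lower, in a table with 2079 genes higher and 1952 lower. FPKM counts reads over the whole gene and can include the retained intron.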

How the data were processed

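The submitters' processing notes name TopHat2 and TAIR10 for the 12 rRNA-depleted libraries. The counter is not given in the sources used here. The authors deposited whole-number counts of boundary and junction reads per library, a fraction per group, the difference of fractions (a score), and a log2 change, p-value and FDR per feature, per the file headers. The deposited expression tables give the authors' FPKM, log2 fold change and q-value, with 1 pooled value per group. The deposited fraction was recomputed within 1e-06 in all 559 IR rows. Each library has 3 count columns (both boundaries and the spliced reads), whose names give its group and a running number but no replicate number, so replicates are numbered by column. Introns and symbols were matched to RefSeq TAIR10.1, whose coordinates fit the splice sites.

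From the counts, edgeR 4.0.16 (R 4.3.3; glmQLFit, glmQLFTest) compared boundary reads (rounded mean of both) with spliced reads, with a term per library, over features with a mean of at least 10 reads per library, with Benjamini-Hochberg adjustment over all tested features of the table. The light contrasts and interaction used the 2349 features with the same junctions in both genotype tables. Each SE was back-calculated from the log2 change and the edgeR test statistic. The test was checked on simulated data. Alternatives were DESeq2 1.42.0, limma 3.58.1 (0.5 added to both counts), no minimum, a minimum of 30 reads, either boundary alone, and each library left out. The members and gene lists were chosen with earlier results of these data known.

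Introns are named by rule. Among introns of both genotype tables with at least 30 reads per library and group, no overlap of libraries and the same direction, these are the 6 largest mean increases and 6 decreases. To these come, in the light response table at that depth, the 5 largest rises and the falls (3 were available), the 5 smallest p of the interaction, the 4 smallest of the Col-0 light response, up to 4 per gene list, and all introns in all 3 tables. The planned ranking of list members by deposited FDR was not needed, since no list held more than 2. Numbers of introns follow transcription in the longest transcript that splices the intron, coding ones first. No strand is stated, and 14 members overlap another gene, whose reads cannot be told apart from theirs. Analyses used Python 3.11.15, pandas 2.3.3, scipy 1.17.1 and matplotlib 3.10.9.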

Additional observations from a re-analysis of the deposited data

How the results depend on the processing

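No paired analysis was possible because the deposited columns carry no replicate number. In the dark, 111 introns were called; DESeq2 called 65, the first boundary alone 73, and leaving out 1 library 74 to 98. In red light, 136 were called; DESeq2 and the second boundary alone called 87 each, and leaving out 1 library 101 to 124. In the light response table, 8 of 20 were called; DESeq2 and the second boundary alone called 4 each, and leaving out 1 library 6 to 8. Beside 5 light calls in Col-0, DESeq2 and limma gave 3 each, either boundary alone 2, and leaving out 1 library 3 to 5, with 3 calls without replicate 2 or 3 of either Col-0 group. Beside 8 light calls in rrc1-3, the first boundary alone gave 5, the second 4, limma 1, and leaving out 1 library 5 to 10, with 5 calls without replicate 3 of rrc1-3 in red light. The median retention of Col-0 in the dark was 22.6% with the minimum of 10 reads and 21.8% without. The interaction gave 0 calls under every alternative run.

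The 61 log2 changes of named introns had 805 alternative values, of which 735 kept direction and side of the threshold, 52 lost the call, 8 gained one and 10 changed sign. With the first boundary alone, the sign changed for AT1G06890 in the dark (-0.0065) and TOM20-1 in the dark (-1.29) and in the light response (1.22). With the second alone, it changed for the longer AT3G07215 intron in the dark (-0.99) and in red light (-0.12), and for AT5G19950 in the rrc1-3 light response (-0.29). Leaving out 1 library moved AT2G23680 in the dark between -1.01 and 0.041, AT2G25770 in the dark between -0.15 and 0.98, and, in the light response, TOM20-1 between -2.03 and 0.43 and AT5G55550 between -0.78 and 0.017. The sign changed without replicate 1, 2 and 3 of rrc1-3 in the dark for AT2G23680, AT2G25770 and TOM20-1, in that order, and without replicate 3 of rrc1-3 in red light for AT5G55550. The cause was not tested. Replicate numbers here only name columns. In the dark, the first boundary had over 4-fold the reads of the second in 14 introns, and less than 0.25 of them in 5; depth limits introns with few spliced reads.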

Other observations

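Several genes carried more than 1 annotated retained intron, 14 in all. AT2G45380, a myeloid leukemia factor family protein, held 3, all coding, and each listed intron was called higher in rrc1-3. Its shortest one, of 76 nt, was retained at 11.9% ± 1.22 in rrc1-3, against 4.58% ± 0.554 in Col-0, in the dark, and after red light at 12.3% ± 0.751 in rrc1-3 and 5.29% ± 1.11 in Col-0 (n = 3 each, ± SD). Its longest one, of 391 nt, stood at 43.8% ± 1.19 in rrc1-3, against 30.9% ± 2.48 in Col-0, in the dark, and after red light at 53.7% ± 3.83 in rrc1-3 and 30.8% ± 0.209 in Col-0 (n = 3 each, ± SD). The intron of 200 nt was listed in red light, at 16% ± 0.297 in rrc1-3 and 9.48% ± 0.230 in Col-0 (n = 3 each, ± SD). AT2G45380 was chosen after its values were seen, as the gene with the most members.

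In 16 introns the genotype difference had opposite signs in the dark and in red light, and in 0 of them was it called in both. AT1G77480, an aspartyl protease, had a log2 change of -0.84 in the dark, where it was called (edgeR adjusted p = 0.0418), and one of 0.61 in red light, where it was not (edgeR adjusted p = 0.147). AT5G15270 was likewise called in the dark (log2 change -0.70, edgeR adjusted p = 0.0178) and not in red light (log2 change 0.23, edgeR adjusted p = 0.331). For FPA, 1 intron had 0.48 in the dark and -1.14 in red light, and neither was called (edgeR adjusted p = 0.481 and 0.0555), while its other member, listed in the dark, was called higher (log2 change 0.84, edgeR adjusted p = 0.0305). The interaction of AT1G77480 and AT5G15270 did not pass the test.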
